A study of Arabidopsis thaliana with 22 samples.

Results

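The genes of indole glucosinolate synthesis were followed across an RNA-seq series of Arabidopsis thaliana seedlings. They were chosen by gene identifier, not by their values, and are 10 of the 27416 genes counted. The set holds the regulators *MYB34*, *MYB51* and *MYB122*, the synthesis genes *CYP79B2*, *CYP79B3*, *CYP83B1*, *SUR1*, *UGT74B1* and *SOT16*, and the modifying enzyme *CYP81F2*. All 10 were present in every count table. The series asked how proteins of the nuclear matrix, the scaffold to which chromatin is attached, shape gene expression in young seedlings. Whole, untreated 5-day-old seedlings, grown with 16 h light days and 8 h nights, were used in every group, with 2 libraries per group. Col-0, the wild-type accession, was the control. The *ahl22* mutant carries an insertion in *AHL22*, which encodes an AT-hook DNA-binding protein, and *frs7 frs12* carries mutations in a pair of genes related to FAR1, a transcription factor of light signalling. Crossing these lines gave *ahl22 frs7 frs12*. The *hda15* mutant carries an insertion in *HDA15*, which encodes a histone deacetylase. Each mutated gene was represented by 1 allele.

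Glucosinolates are sulfur-rich defence compounds of the cabbage order, stored apart from the myrosinases that break them down when tissue is damaged. The indole class is made from tryptophan. *CYP79B2* and *CYP79B3* turn tryptophan into indole-3-acetaldoxime, from which camalexin and part of the auxin pool can also be made, and *CYP83B1*, *SUR1*, *UGT74B1* and *SOT16* carry the oxime on to indol-3-ylmethyl glucosinolate. *MYB34*, *MYB51* and *MYB122* are R2R3-MYB transcription factors that activate these genes, and MYC proteins of the jasmonate pathway act with them.

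The files hold 2 distinct pairs of Col-0 libraries. The same pair serves as the control for *ahl22*, *frs7 frs12* and *hda15* (hereafter the shared controls, or the shared pair), and a different pair stands beside *ahl22 frs7 frs12* (hereafter the other controls, or the other pair). The libraries held 12537767 to 21400580 counts. Levels are given as CPM, counts scaled to a common library size after TMM correction for library composition over all 12 libraries. *AHL22* had 18.4 and 16.7 CPM in the shared controls, 0.85 and 1.06 in *ahl22*, and 0.974 and 1.66 in *ahl22 frs7 frs12*. The other controls, labelled Col-0, had 2.99 and 3.02 CPM of *AHL22*, and *frs7 frs12*, a mutant with no change at this gene by its label, had 1.75 and 1.44. On the log2 scale, *AHL22* in the other controls had -2.55 (SE 0.203) against the shared pair. In *ahl22* it had -1.62 (SE 0.4, edgeR adjusted p = 0.0296) against the other controls. Against the same controls, *AHL22* did not pass in *ahl22 frs7 frs12* (-1.21, SE 0.431, edgeR adjusted p = 0.126) or in *frs7 frs12* (-0.91, SE 0.392, edgeR adjusted p = 0.213). The cause of the low *AHL22* level in the other controls and *frs7 frs12* was not tested. *FRS12* was low in both mutants that carry its mutation (3.6 to 4.17 CPM, against 28.0 to 38.2 elsewhere, with 440 bases shared with the overlapping gene AT5G18970), *FRS7* was moderately low there (8.02 to 11.3 against 13.6 to 20.4), and *HDA15* was low in *hda15* (3.56 and 3.57 against 34.0 to 56.1). The Col-0 pairs also differed in 9391 of 19214 genes tested. The members are therefore given below in every mutant against both pairs, and comparisons that use the same pair share its libraries. For other genes, some values are given against the shared pair only. The methods call the libraries biological replicates but do not say how the seedlings of each were grown or pooled, and p-values measure the spread between these libraries. Where a library is left out below, its group holds a single library and adds no spread. Calls kept or lost in such fits show only how far a result leans on that library.

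Root markers moved with this division of the libraries. The summed level of 12 root genes was 195 to 201 CPM in the shared controls and 163 to 177 in *hda15*, but 82.9 to 109 in the other controls and 77.2 to 101 in the mutants other than *hda15*. *IRT1*, the root iron transporter, was at 0 in both libraries of the other controls. So was *NRT2.1*, a root nitrate transporter, but its counts were too low to be tested in any comparison with a Col-0 pair. Against the shared controls, 10 of 10 root markers tested were lower in *ahl22* (29.8% of all genes were) and in *frs7 frs12* (28.3%), 9 of 10 in the other controls (25.4%) and in the cross *ahl22 frs7 frs12* (29.4%), and 2 of 10 in *hda15* (12.4%). In whole seedlings, fewer root cells and less RNA per root cell cannot be told apart. Summed over 9 shoot markers, the level was 96074 to 98362 CPM in the shared controls and 86463 to 88031 in the other. In the mutants it was 74264 to 76893 CPM (*ahl22*), 80913 to 88512 (*frs7 frs12*), 98933 to 101023 (*ahl22 frs7 frs12*) and 97940 to 112313 (*hda15*). The evening clock genes *PRR5*, *TOC1*, *GI*, *ELF4* and *LUX* summed to 245 to 280 CPM in the shared controls and to 63.5 to 153 in all other libraries. Of 5 morning clock genes, *LHY*, *RVE8*, *CCA1* and *PRR9* were higher in the other controls than in the shared pair (2.49, 1.14, 1.06 and 0.49), and *PRR7* had -0.20. In *hda15* against the shared pair these genes had 3.09, 2.23, 2.05, 1.45 and, for *PRR7*, -0.73. Against the other pair they had 0.61, 1.10, 1.00, 0.97 and, for *PRR7*, -0.52 in *hda15*, and all passed. The part of the root, shoot and clock genes in the results below was not tested.

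The stretches before the annotated starts of 5 members are shown first, because *CYP79B2*, *CYP83B1* and *MYB34* divided the libraries into the sets described below, *CYP79B3* is the closest relative of *CYP79B2*, and *SUR1* had the most motif matches. Each is the 250 bases before the gene in TAIR10.1 (RefSeq), read in the direction of the gene. For *CYP79B2* (chr4:18524792-18525041, plus strand) and *CYP79B3* (chr2:9488163-9488412, plus strand), capitals mark the bases they share in a stretch of 40 bases with 1 mismatch, which is in lower case. For *CYP83B1* (chr4:15275405-15275654, minus strand) and *MYB34* (chr5:24494041-24494290, plus strand), none of the motifs searched was found. For *SUR1* (chr2:8880441-8880690, minus strand), capitals mark motif matches.
*CYP79B2*: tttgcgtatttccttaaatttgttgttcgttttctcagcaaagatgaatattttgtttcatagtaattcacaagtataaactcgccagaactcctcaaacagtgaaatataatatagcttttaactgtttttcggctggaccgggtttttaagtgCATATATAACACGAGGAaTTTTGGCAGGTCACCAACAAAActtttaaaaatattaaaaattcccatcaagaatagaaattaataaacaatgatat
*CYP79B3*: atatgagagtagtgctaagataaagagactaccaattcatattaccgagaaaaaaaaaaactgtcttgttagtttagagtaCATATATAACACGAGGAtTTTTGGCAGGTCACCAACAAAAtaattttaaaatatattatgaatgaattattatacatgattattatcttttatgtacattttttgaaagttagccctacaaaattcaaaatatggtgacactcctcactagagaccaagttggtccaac
*CYP83B1*: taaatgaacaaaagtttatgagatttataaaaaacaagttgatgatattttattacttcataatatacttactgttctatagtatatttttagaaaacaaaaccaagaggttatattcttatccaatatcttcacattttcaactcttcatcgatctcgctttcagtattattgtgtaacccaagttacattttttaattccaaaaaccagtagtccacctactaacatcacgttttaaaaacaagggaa
*MYB34*: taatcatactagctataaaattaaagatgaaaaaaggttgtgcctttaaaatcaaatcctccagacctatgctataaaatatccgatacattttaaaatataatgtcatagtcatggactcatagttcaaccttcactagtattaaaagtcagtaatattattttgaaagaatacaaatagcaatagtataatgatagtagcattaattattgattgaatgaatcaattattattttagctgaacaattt
*SUR1*: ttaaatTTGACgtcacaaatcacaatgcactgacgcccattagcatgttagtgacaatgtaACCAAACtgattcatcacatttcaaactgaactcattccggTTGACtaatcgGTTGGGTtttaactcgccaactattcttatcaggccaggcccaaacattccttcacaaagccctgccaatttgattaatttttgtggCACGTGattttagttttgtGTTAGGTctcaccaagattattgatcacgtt

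Within the stretch shared by *CYP79B2* and *CYP79B3*, an unbroken run of 22 bases began 77 bases before the *CYP79B2* start and 151 bases before the *CYP79B3* start. It was found in 2 of 26709 promoters of this length, those of these genes. The next longest run shared by any pair of members had 13 bases (*MYB34* and *CYP79B3*) and occurred in 15 promoters. On both strands, 4 motifs were searched. The G-box, CACGTG, the core of MYC binding sites, was in 6.58% of all promoters and in 1 member, *SUR1*, at 50 bases before the start. The W-box core TTGAC, bound by WRKY factors, was in 45% of promoters and in *MYB51*, *SUR1* and *CYP81F2*. The AC element ACCNAAC, a MYB motif, was in 14.5% of promoters and in *SUR1*, with 3 matches. CACGCGC, the site of FHY3 and FAR1, was in 1.08% of promoters and in no member. Member promoters had a median of 72% A and T (60.8% in *SUR1* to 75.2% in *MYB34*), beside 68.8% over all promoters. No other annotated gene overlaps a member, and no member has a copy with 95% identity over 150 bases. *CYP79B2* and *CYP79B3* are 81.6% identical over 1629 bases, and *SOT16* is 81.2% identical to *SOT18*, a sulfotransferase of the aliphatic class, over 991 bases.

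Depth differed among members. *MYB122* had 1 to 13 counts per library, *CYP81F2* had 52 to 153, *MYB51* had 91 to 257 and *MYB34* had 92 to 335. The other 6 members had 257 to 2223. *MYB122* did not pass the filter on low counts, so 9 members were tested. Levels of different genes are compared per kilobase of exon (RPKM). In the shared controls the order by mean RPKM (SD, n = 2) was *CYP83B1* at 59.6 ± 7.36, *CYP79B3* at 28.2 ± 2.28, *CYP79B2* at 25.8 ± 0.325, *SOT16* at 24.9 ± 0.332, *SUR1* at 24.0 ± 3.42 and *UGT74B1* at 12.8 ± 0.753. *MYB51* (5.78 ± 0.463), *MYB34* (4.88 ± 0.972) and *CYP81F2* (2.88 ± 0.597) were lower, and *MYB122* had 0.374 ± 0.309. The libraries of *SUR1* overlapped those of *CYP79B2* and *SOT16* on this scale. In the other controls *CYP83B1* (27.7 ± 3.68) no longer stood above *SOT16* (30.2 ± 0.931) or *SUR1* (29.2 ± 7.25), and *CYP79B2* (11.6 ± 1.22) overlapped *MYB34* (11.9 ± 1.43). In *hda15*, *SOT16* (47.2 ± 3.64) came next after *CYP83B1* (62.9 ± 11.1).

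**Figure D1:**
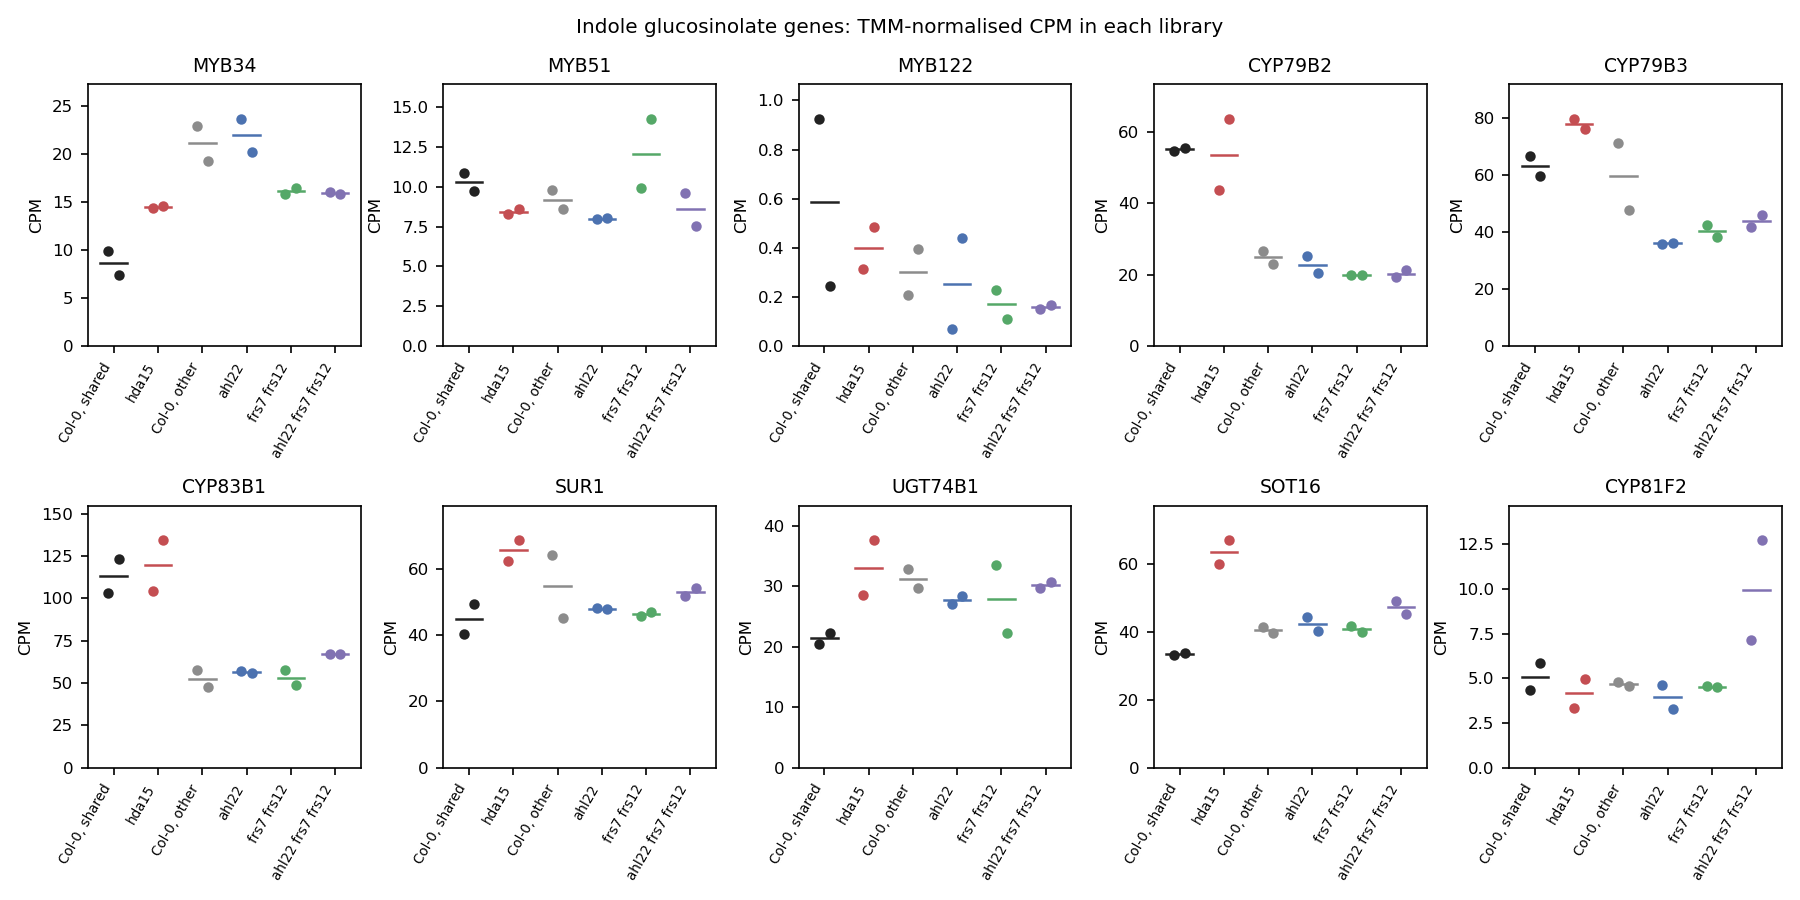
TMM-normalised CPM of each of the 10 genes in each of the 12 libraries. Each point is 1 library and each bar the mean of a group, and every axis starts at 0. *CYP79B2* and *CYP83B1* are high in the 4 libraries of the shared controls and *hda15*, *MYB34* is lowest in the shared controls, and *CYP81F2* is highest in *ahl22 frs7 frs12*.

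*MYB34*, *MYB51* and *MYB122* are the regulators. *MYB34* (AT5G60890, chr5:24494291-24496371, 3 exons) had 9.90 and 7.46 CPM in the shared controls and 22.9 and 19.3 in the other. It had 15.9 and 16.5 CPM in *frs7 frs12*, 23.7 and 20.2 in *ahl22*, 16.0 and 15.9 in the cross *ahl22 frs7 frs12*, and 14.4 and 14.6 in *hda15*. The shared controls were thus below every other library, *ahl22* overlapped the other controls, and *frs7 frs12* overlapped *ahl22 frs7 frs12*. Against the shared controls, *MYB34* rose in *ahl22* by 1.32 on the log2 scale (SE 0.154, edgeR adjusted p = 2.25e-09), in *frs7 frs12* by 0.89 (SE 0.175), in *ahl22 frs7 frs12* by 0.86 (SE 0.178) and in *hda15* by 0.73 (SE 0.197, edgeR adjusted p = 0.0132). The *hda15* call was lost without the second library of the shared controls (edgeR adjusted p = 0.242). Against the other controls no mutant passed as higher in *MYB34*, and the log2 differences of 0.07 (*ahl22*), -0.38 (*frs7 frs12*) and, for *ahl22 frs7 frs12*, -0.42 did not pass. Without the second library of the other pair, *MYB34* passed as lower in *frs7 frs12* (-0.51, edgeR adjusted p = 0.0487) and in *ahl22 frs7 frs12* (-0.55, edgeR adjusted p = 0.0236). In *hda15*, *MYB34* was lower than in the other controls, at -0.54 (SE 0.18, edgeR adjusted p = 0.0385), a call kept in 4 of 9 alternative settings and lost without any 1 of the 4 libraries (edgeR adjusted p = 0.0624 to 0.293). The direction of *MYB34* in *hda15* therefore depended on the Col-0 pair.

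*MYB51* (AT1G18570, chr1:6389399-6391386, 3 exons) had 10.9 and 9.73 CPM in the shared controls, 9.81 and 8.59 in the other and 7.57 to 14.3 in the mutants. Its highest library, at 14.3, was the second of *frs7 frs12*, and its groups differed by 1.51-fold at most. With all libraries, its edgeR adjusted p was 0.078 or higher in every comparison. Without the first *frs7 frs12* library, *MYB51* in *frs7 frs12* had 0.47 against the shared pair, in place of 0.24. It was also higher in *frs7 frs12* than in *ahl22* by 0.59 in a fit of only those 4 libraries (edgeR adjusted p = 0.044). *MYB122* (AT1G74080, chr1:27855578-27857598, 3 exons) had 0.0708 to 0.926 CPM, too low a level to be tested at this depth.

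*CYP79B2* and *CYP79B3* make the oxime. *CYP79B2* fell in 3 mutants against the shared controls only, and *CYP79B3* fell in *ahl22* and *frs7 frs12* against both pairs. *CYP79B2* (AT4G39950, chr4:18525042-18527602, 3 exons) had 54.6 and 55.6 CPM in the shared controls and 43.6 and 63.8 in *hda15*. It had 26.7 and 23.0 CPM in the other controls, 19.9 and 19.9 in *frs7 frs12*, 25.2 and 20.5 in *ahl22*, and 19.3 and 21.4 in the cross *ahl22 frs7 frs12*. The shared controls and *hda15* overlapped and stood apart from all 8 other libraries, in which each group overlapped its neighbour in level. Against the shared controls, *CYP79B2* fell in *ahl22* by 1.28 on the log2 scale (SE 0.103, edgeR adjusted p = 2.2e-13), in *frs7 frs12* by 1.47 (SE 0.11) and in *ahl22 frs7 frs12* by 1.45 (SE 0.11). Against the other controls these mutants differed by -0.10, -0.31 and -0.30, none of which passed. *CYP79B2* in *hda15* differed from the shared controls by -0.05 (SE 0.162), or by -0.34 without the second *hda15* library, and rose against the other controls by 1.11 (SE 0.186, edgeR adjusted p = 0.000828).

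*CYP79B3* (AT2G22330, chr2:9488413-9491404, 2 exons) had 66.9 and 59.7 CPM in the shared controls and 71.2 and 47.9 in the other, so the Col-0 pairs overlapped. It had 42.6 and 38.3 CPM in *frs7 frs12*, 35.9 and 36.2 in *ahl22*, 42.0 and 45.9 in the cross *ahl22 frs7 frs12*, and 79.9 and 76.3 in *hda15*. All 6 libraries of the mutants in *AHL22* or *FRS7* and *FRS12* were below all 4 Col-0 libraries. In *ahl22*, *CYP79B3* fell against both pairs, by 0.82 (SE 0.0899, edgeR adjusted p = 6.29e-10) against the shared pair and by 0.70 (SE 0.149, edgeR adjusted p = 0.0131) against the other. In *frs7 frs12* it fell by 0.65 (SE 0.101, edgeR adjusted p = 8.01e-06) and by 0.55 (SE 0.152, edgeR adjusted p = 0.0412). In *ahl22 frs7 frs12* it fell against the shared pair by 0.54 (SE 0.0948) and had -0.45 (SE 0.151, edgeR adjusted p = 0.0994) against the other. The latter passed with no filter on low counts, at -0.45 (edgeR adjusted p = 0.000717). Without the second library of the other pair, which leaves a single library in that group, it was -0.72. Against the shared pair these calls were kept in 10 of 10 alternative settings for each of these mutants. Against the other pair they were less firm. The *ahl22* call was lost without either *ahl22* library (edgeR adjusted p = 0.138 and 0.153). The fall in *ahl22* was 0.38 without the first library of the other pair and 0.97 without the second. The *frs7 frs12* call was lost without the first library of the other pair, with a difference of -0.23 (edgeR adjusted p = 0.392), and without either *frs7 frs12* library (edgeR adjusted p = 0.161 and 0.286). In *hda15*, *CYP79B3* had +0.30 against the shared pair and +0.39 against the other, neither of which passed. Without the second *hda15* library the former was 0.33, and without the first library of the other pair the latter was 0.72.

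*CYP83B1* carries indole-3-acetaldoxime into glucosinolate synthesis. *CYP83B1* (AT4G31500, chr4:15273410-15275404, 2 exons) had 103 and 123 CPM in the shared controls and 104 and 134 in *hda15*. It had 57.6 and 47.7 CPM in the other controls, 57.4 and 48.5 in *frs7 frs12*, 56.9 and 56.0 in *ahl22*, and 67.0 and 67.3 in the cross *ahl22 frs7 frs12*. As for *CYP79B2*, *hda15* overlapped the shared controls, and the other 8 libraries were all lower. The *ahl22 frs7 frs12* libraries were above the 6 other low ones. Against the shared pair *CYP83B1* fell in *ahl22* by 1.01 (SE 0.0833), in *frs7 frs12* by 1.10 (SE 0.101) and in *ahl22 frs7 frs12* by 0.76 (SE 0.0849, edgeR adjusted p = 4.73e-10). Against the other pair the differences were 0.12, 0.01 and 0.34 in these mutants, with the last at edgeR adjusted p = 0.0772. Without the first library of the other pair, the value in *ahl22 frs7 frs12* was 0.49 and that in *ahl22* was 0.27. With no filter on low counts, the value in *ahl22 frs7 frs12* was 0.34 and passed (edgeR adjusted p = 0.0151). In *hda15* it had 0.07 (SE 0.146) against the shared pair and rose by 1.18 (SE 0.161, edgeR adjusted p = 0.000191) against the other.

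*SUR1*, *UGT74B1* and *SOT16* act after *CYP83B1*, as the C-S lyase, the glucosyltransferase and the sulfotransferase, and they differed less among groups (1.46-fold, 1.54-fold and 1.89-fold between the highest and the lowest mean). *SOT16* (AT1G74100, chr1:27864345-27865694, 1 exon) had 33.3 and 34.0 CPM in the shared controls, 41.7 and 39.9 in the other, and 60.2 and 67.2 in *hda15*. It had 41.9 and 40.0 CPM in *frs7 frs12*, 44.5 and 40.3 in *ahl22*, and 49.2 and 45.5 in the cross *ahl22 frs7 frs12*. Both *hda15* libraries were above every other library. *SOT16* rose in *hda15* against both pairs, by 0.91 (SE 0.135, edgeR adjusted p = 0.000172) against the shared pair and by 0.65 (SE 0.139, edgeR adjusted p = 0.00428) against the other. The former call was kept in 10 of 10 alternative settings and the latter in 8 of 9, the exception being without the second library of the other pair (edgeR adjusted p = 0.0665). Against the shared pair *SOT16* also rose in *ahl22 frs7 frs12* by 0.49 (SE 0.103), in *ahl22* by 0.33 (SE 0.0977) and in *frs7 frs12* by 0.28 (SE 0.107), and it did not pass in these mutants against the other pair (0.20, 0.08 and 0.01). The rise in *ahl22* lost its call without the first *ahl22* library (edgeR adjusted p = 0.0921), and the rise in *frs7 frs12* lost it without either library of the shared pair or without the first *frs7 frs12* library (edgeR adjusted p = 0.0847 to 0.139).

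*SUR1* (AT2G20610, chr2:8877887-8880440, 6 exons) had 40.4 and 49.4 CPM in the shared controls, 64.3 and 45.1 in the other, and 62.5 and 68.7 in *hda15*. The remaining mutants had 45.8 to 54.2 CPM, within the range of the Col-0 libraries. Against the other pair they differed by -0.17 (*ahl22*), -0.23 (*frs7 frs12*) and -0.06 (*ahl22 frs7 frs12*), none of which passed. Without the second library of that pair the differences were -0.41, -0.47 and -0.30 in the same order. Against the shared pair *SUR1* in *ahl22* had 0.09, or 0.25 without the second library of that pair. *SUR1* rose in *hda15* against the shared pair by 0.54 (SE 0.142, edgeR adjusted p = 0.0108), a call lost without the first library of that pair (edgeR adjusted p = 0.304), and had 0.26 (SE 0.17) against the other. A rise of 0.24 in *ahl22 frs7 frs12* against the shared pair (SE 0.101, edgeR adjusted p = 0.0445) was kept in 3 of 10 alternative settings, and it was 0.09 without the first library of that pair (edgeR adjusted p = 0.561).

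*UGT74B1* (AT1G24100, chr1:8525334-8527087, 2 exons) had 20.5 and 22.3 CPM in the shared controls, 32.8 and 29.7 in the other, and 28.5 and 37.6 in *hda15*. It had 33.5 and 22.3 CPM in *frs7 frs12*, 27.0 and 28.4 in *ahl22*, and 29.8 and 30.6 in the cross *ahl22 frs7 frs12*. The shared controls were the lowest group, reached by the second *frs7 frs12* library. *UGT74B1* rose against the shared pair in all 4 mutants, by 0.37 in *ahl22* (SE 0.117), 0.37 in *frs7 frs12* (SE 0.153, edgeR adjusted p = 0.0467), 0.49 in *ahl22 frs7 frs12* (SE 0.124) and 0.62 in *hda15* (SE 0.166), and did not pass in any against the other pair (-0.17 to 0.08). Without the first *frs7 frs12* library, the value in *frs7 frs12* was 0.07 (edgeR adjusted p = 0.746). Without the first library of the shared pair its call was also lost (edgeR adjusted p = 0.131). The *ahl22* call was lost without the first library of the shared pair or the second of *ahl22* (edgeR adjusted p = 0.0621 and 0.0695), and the *hda15* call without either library of the shared pair (edgeR adjusted p = 0.156 and 0.0663). By DESeq2 neither *UGT74B1* nor *SOT16* passed in *ahl22* or *frs7 frs12* (DESeq2 adjusted p = 0.0594 to 0.186).

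*CYP81F2* hydroxylates the indole ring and is known for making the precursor of 4-methoxyindol-3-ylmethyl glucosinolate, which is needed for part of the defence response to microbes. *CYP81F2* (AT5G57220, chr5:23187840-23189902, 3 exons) had 4.34 and 5.84 CPM in the shared controls and 4.80 and 4.59 in the other. It had 4.60 and 3.26 CPM in *ahl22*, 4.57 and 4.50 in *frs7 frs12*, 3.35 and 4.96 in *hda15*, and 7.12 and 12.7 in *ahl22 frs7 frs12*. Both *ahl22 frs7 frs12* libraries were above all 10 others. *CYP81F2* rose in *ahl22 frs7 frs12* by 1.06 (SE 0.279, edgeR adjusted p = 0.0367) against its own controls and by 0.95 (SE 0.247, edgeR adjusted p = 0.00113) against the shared pair. It also rose against *ahl22* by 1.34 (SE 0.29, edgeR adjusted p = 0.0039) and against *frs7 frs12* by 1.12 (SE 0.285, edgeR adjusted p = 0.0304). These calls rest on the second *ahl22 frs7 frs12* library. Without it the differences were 0.59 (edgeR adjusted p = 0.458), 0.48 (0.145), 0.83 (0.169) and 0.63 (0.459) in the same order. The call against *frs7 frs12* was also lost without either *frs7 frs12* library (edgeR adjusted p = 0.137 and 0.217), and that against *ahl22* without the second *ahl22* library (edgeR adjusted p = 0.108). By DESeq2 the call against its own controls was lost (DESeq2 adjusted p = 0.0763). In the other mutants *CYP81F2* had -0.38 to -0.04 against either Col-0 pair, and none passed.

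**Figure D2:**
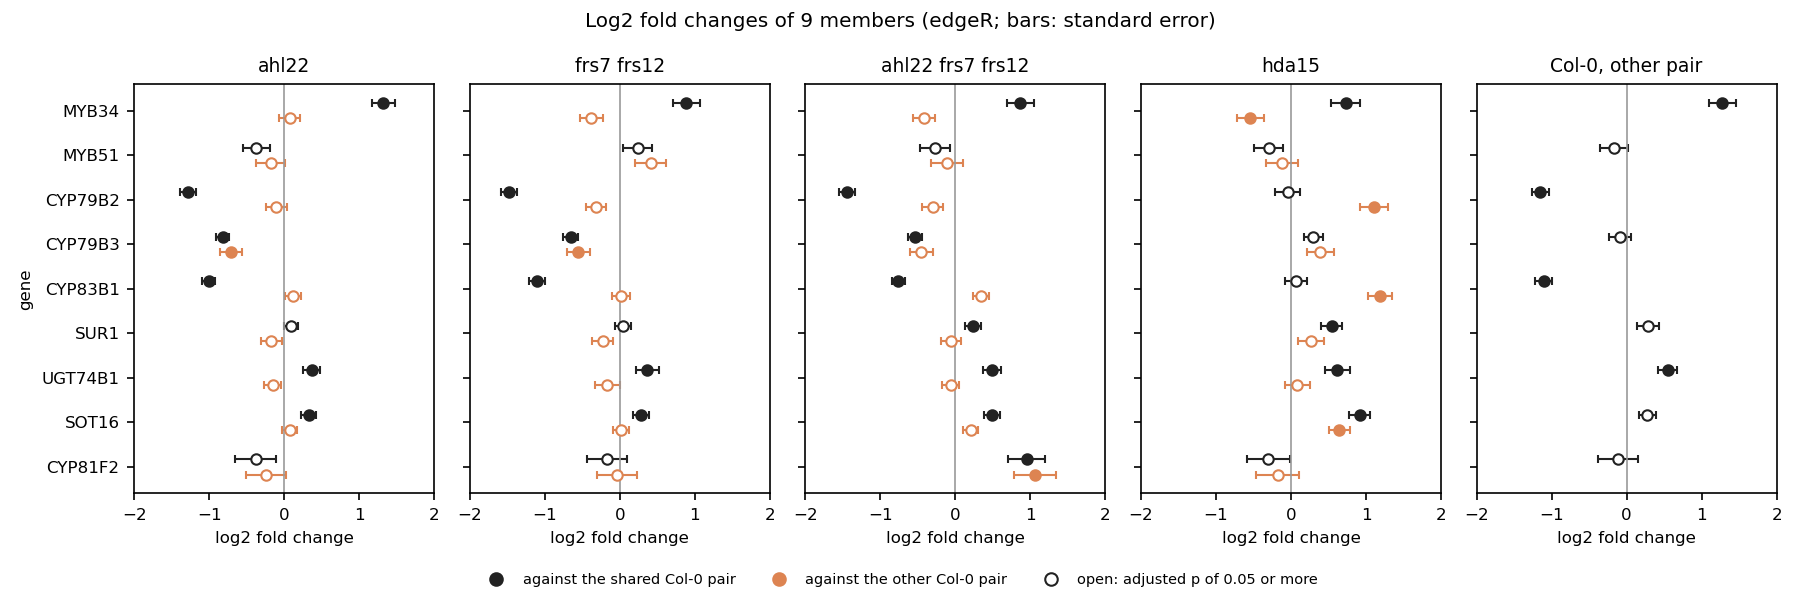
Log2 fold changes of the 9 genes tested in each mutant and, in the last panel, between the Col-0 pairs. Points are edgeR estimates with bars of 1 standard error, black against the shared controls and orange against the other, and filled points have an adjusted p below 0.05. In every mutant but *hda15*, *CYP79B2* and *CYP83B1* lie far below 0 against the shared pair and nearer 0 against the other. In *hda15* they lie near 0 against the shared pair and far above it against the other (1.11 and 1.18). *MYB34* lies above 0 in every mutant against the shared pair (0.73 to 1.32) and at -0.54 to 0.07 against the other.

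Counted over the set, 6 of 9 members passed in *ahl22* against the shared controls (3 higher, 3 lower), beside 57.7% of all genes tested (27.9% higher, 29.8% lower). In *frs7 frs12*, 6 of 9 passed (3 higher, 3 lower), beside 54.3% (26% higher, 28.3% lower). In *ahl22 frs7 frs12* against this pair, 8 of 9 passed (5 higher, 3 lower), beside 56.5% (27.1% higher, 29.4% lower). In *hda15*, 4 of 9 passed, all higher, beside 25.7% of all genes (13.3% higher, 12.4% lower). These comparisons share the same 2 control libraries. Against the other controls, 1 of 9 passed in *ahl22* (6.3% of all genes), 1 of 9 in *frs7 frs12* (6.76%) and 1 of 9 in *ahl22 frs7 frs12* (6.27%), and 4 of 9 passed in *hda15* (3 higher, 1 lower), beside 28.1% (16.7% higher, 11.4% lower). On a set of 9 genes, nothing particular to the members is read from these counts. Changes of the same direction against both pairs were the falls of *CYP79B3* in *ahl22* and *frs7 frs12*, the rise of *CYP81F2* in *ahl22 frs7 frs12* and the rise of *SOT16* in *hda15*. In the direct comparison of *frs7 frs12* with *ahl22*, 0 of 9 members passed by edgeR, beside 4.39% of all genes, and 0 passed by DESeq2. *MYB34* and *MYB51* had an unadjusted edgeR p below 0.05, a threshold for which the share over all genes is not given. Mutants were also compared with no Col-0 library in the contrast. *CYP81F2* was the 1 member of 9 that passed in *ahl22 frs7 frs12* against *ahl22* (11.7% of all genes) and against *frs7 frs12* (3.55%). In *hda15* against *ahl22 frs7 frs12*, 5 of 9 passed, beside 39.5% of all genes. Higher were *CYP79B2* at 1.4 (SE 0.154), *CYP79B3* at 0.83 (SE 0.137), *CYP83B1* at 0.83 (SE 0.126) and *SOT16* at 0.43 (SE 0.104). *CYP81F2* was lower, at -1.25 (SE 0.283). This value also leaned on the second *ahl22 frs7 frs12* library, without which it was -0.77.

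The Col-0 pairs themselves differed in 4 of 9 members, 2 higher and 2 lower in the other controls, beside 48.9% of all genes (23.5% higher, 25.4% lower). In the other controls, *MYB34* was higher by 1.28 (SE 0.178, edgeR adjusted p = 3.34e-05) and *UGT74B1* by 0.54 (SE 0.128), and *CYP79B2* was lower, at -1.15 (SE 0.116), as was *CYP83B1*, at -1.10 (SE 0.116). *SOT16* had 0.28 (SE 0.11) and lay at the threshold, with an edgeR adjusted p of 0.05. Without the second library of the other pair *SUR1* had 0.52, and without the first *CYP79B3* had -0.41. The calls on *MYB34*, *CYP79B2* and *CYP83B1* were kept in 9 of 9 alternative settings, and that on *UGT74B1* was lost without the first library of the shared pair (edgeR adjusted p = 0.0572).

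Set by library, the shared controls and *hda15* formed one set and the other 8 libraries another for *CYP79B2*, *CYP83B1* and, by a small gap, *MYB34*. This division was chosen after the values were seen and is given as ranges only. *CYP79B2* had 43.6 to 63.8 CPM in the 4 libraries and 19.3 to 26.7 in the 8, *CYP83B1* had 103 to 134 and 47.7 to 67.3, and *MYB34* had 7.46 to 14.6 and 15.9 to 23.7. For *MYB34* the *hda15* libraries (14.4 and 14.6) lay close to the lowest of the 8 (15.9) and above the shared controls (7.46 and 9.90). The other members overlapped between these sets. The CPM of *CYP79B2* divided by that of *MYB34*, its activator, was 5.52 and 7.46 in the shared controls, 3.03 and 4.38 in *hda15* and 1.02 to 1.35 in the 8 others. Summed over *CYP79B2*, *CYP79B3* and *CYP83B1*, the level was 225 and 238 CPM in the shared controls, 228 and 274 in *hda15* and 107 to 155 in the 8 others. Summed over *SUR1*, *UGT74B1* and *SOT16* it was 94.2 and 106 CPM in the shared controls, 109 to 139 in the 8 others and 151 and 173 in *hda15*. The ratio and the first sum hold the genes by which the sets were chosen, so their separation adds no test. *CYP79B3* by itself overlapped between the sets, at 59.7 to 79.9 CPM in the 4 libraries and 35.9 to 71.2 in the 8. The second sum was lowest in the shared controls and highest in *hda15*. For *SUR1* and *UGT74B1* singly, the shared controls overlapped libraries of other groups.

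**Figure D3:**
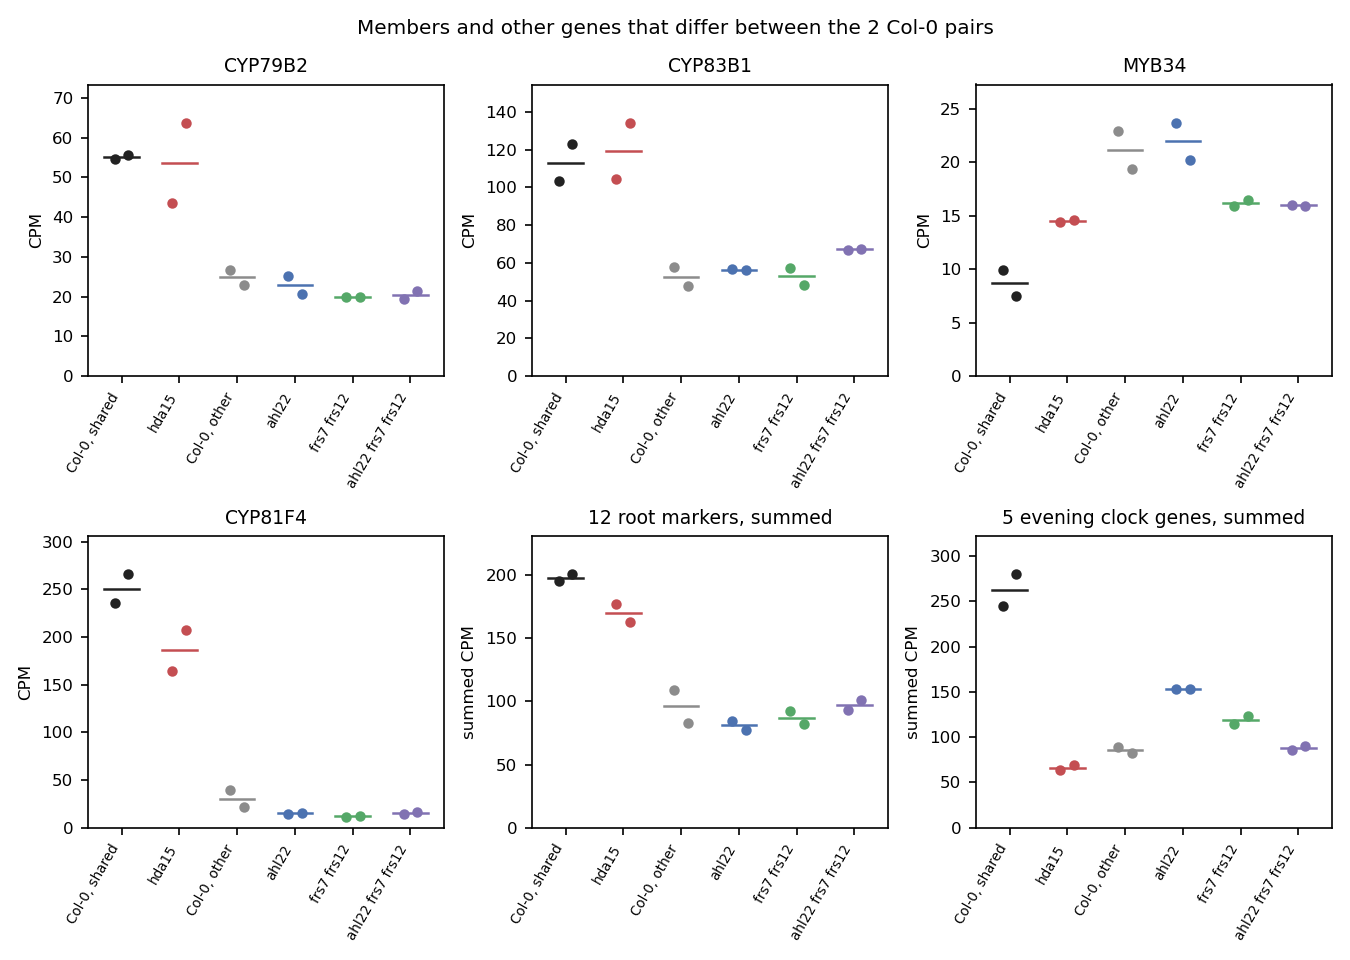
CPM of *CYP79B2*, *CYP83B1*, *MYB34* and the related gene *CYP81F4*, and the summed CPM of 12 root markers and 5 evening clock genes, in each library. Points are libraries, bars are group means, and all axes start at 0. The root markers and *CYP81F4* divide the libraries as *CYP79B2* and *CYP83B1* do, whereas the evening clock genes are high in the shared controls and low in *hda15*.

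By the labels, the effect of *frs7 frs12* could be read in Col-0 and in *ahl22*, and the difference between these effects was tested in a fit of all 12 libraries. The levels of *AHL22* limit this reading. *AHL22* was low in the libraries labelled *frs7 frs12* (1.75 and 1.44 CPM, beside 0.85 and 1.06 in *ahl22*) and in the other controls, so *frs7 frs12* cannot be read as a mutant with *AHL22* at the level of the shared controls. For *CYP79B3*, *ahl22 frs7 frs12* differed from *ahl22* by 0.29 on the log2 scale (edgeR adjusted p = 0.207), beside the fall of *frs7 frs12* against Col-0. The difference between these effects was 0.84 (SE 0.197, edgeR adjusted p = 0.00929) with the other controls and 0.94 (SE 0.198, edgeR adjusted p = 0.000956) with the shared pair. For *CYP81F2* the difference was 1.38 (SE 0.416, edgeR adjusted p = 0.0425) with the other pair and 1.5 (SE 0.417, edgeR adjusted p = 0.0082) with the shared pair. Over all genes, 8.54% passed this test with the other pair and 34% with the shared pair. With the shared pair, the call on *CYP79B3* was kept when any library of the 4 groups was left out (0.83 to 0.98). With the other pair it was lost in 5 of 8 such fits, and was 0.52 without the first library of that pair (edgeR adjusted p = 0.0716). *SUR1*, which did not pass in either case, had 0.61 with the other pair without its second library. The call on *CYP81F2* was lost in 7 of 8 with the other pair and in 3 of 8 with the shared pair. Without the second *ahl22 frs7 frs12* library, it was 0.87 (edgeR adjusted p = 0.291) and 1.00 (edgeR adjusted p = 0.0891).

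**Figure D4:**
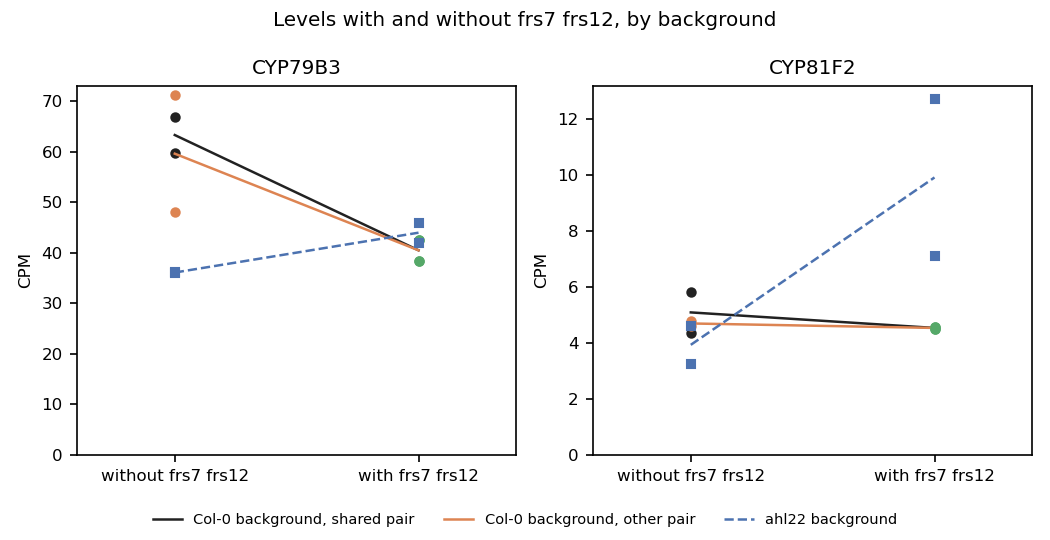
CPM of *CYP79B3* and *CYP81F2* without and with *frs7 frs12*, by label in the Col-0 background (circles, with each Col-0 pair in turn) and in the *ahl22* background (squares). Points are libraries, green circles are *frs7 frs12*, lines join group means, and axes start at 0. *CYP79B3* goes down in Col-0 and not in *ahl22*, where it is already low, and *CYP81F2* goes up in *ahl22* alone, mainly in 1 library.

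Further steps of the indole branch were read from lists of related genes. The other ring-modifying genes (*CYP81F1*, *CYP81F3*, *CYP81F4* and the methyltransferases *IGMT1* to *IGMT5*) summed to 593 to 646 CPM in the shared controls, 370 to 413 in *hda15* and 230 to 300 in the other 8 libraries. Between the Col-0 pairs, 7 of these 8 genes were lower in the other pair, beside 25.4% of all genes. *CYP81F4*, which hydroxylates the ring at its nitrogen, had 236 and 266 CPM in the shared controls, 165 and 207 in *hda15*, 39.4 and 21.7 in the other controls and 11.3 to 16.0 in the remaining mutants. *CYP81F4* was lower against both pairs in the mutants other than *hda15* (*ahl22*, then *frs7 frs12*, then *ahl22 frs7 frs12*), by -4.08 (SE 0.0909), -4.41 (SE 0.105) and -4.06 (SE 0.0943) against the shared pair and by -1.02 (SE 0.216), -1.36 (SE 0.22) and -1.03 (SE 0.221) against the other. It shares 925 bases with the overlapping gene AT4G37409, so reads of the pair cannot be told apart. *IGMT4* had 72.1 and 74.9 CPM in *hda15* and 166 to 254 in all other libraries, and was lower in *hda15* against both pairs, by -1.52 (SE 0.127) and -1.21 (SE 0.131). *IGMT4* is 96.2% identical to *IGMT3* over 312 bases, and *IGMT2* is 96.3% identical to *IGMT3* over 1363 bases. Counts of these copies may be split, so *IGMT2* and *IGMT3*, both among the 7 lower genes above, may not count separately. In *frs7 frs12*, *IGMT1* was lower against both pairs (-3.53 and -0.87) and *IGMT4* higher (0.26 and 0.58).

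Upstream and downstream steps were read from further lists. Of 8 tryptophan synthesis genes, 7 passed against the shared pair in *ahl22* (5 higher, 2 lower), 6 in *frs7 frs12* (4 higher, 2 lower), 5 in *ahl22 frs7 frs12* (4 higher, 1 lower) and 4 in *hda15* (3 higher, 1 lower), beside 57.7%, 54.3%, 56.5% and 25.7% of all genes. Against the other pair 1 passed in each mutant, as higher, beside 6.3%, 6.76%, 6.27% and 28.1%. In all mutants but *hda15* this gene was *TSB1*, a tryptophan synthase subunit, which had 157 and 166 CPM in the shared controls, 93.0 and 104 in the other and 116 to 140 in these mutants. Its direction thus depended on the Col-0 pair, with -0.44 and 0.30 in *ahl22*, -0.35 and 0.38 in *frs7 frs12*, and -0.23 and 0.48 in *ahl22 frs7 frs12*. In *hda15* it was *TSB2*, at 1.2 (SE 0.212). Of 6 genes of sulfur and glutathione supply, *GSTF10*, a glutathione transferase, was higher against both pairs in *frs7 frs12* (0.53 and 0.56), *ahl22 frs7 frs12* (0.36 and 0.38) and *hda15* (0.51 and 0.54). *APK2*, which makes the activated sulfate that *SOT16* uses, had 70.1 and 67.9 CPM in *hda15*, 29.2 and 29.8 in the shared controls and 54.0 and 36.2 in the other, and rose in *hda15* by 1.22 (SE 0.133) and 0.62 (SE 0.176). Among 11 genes of breakdown and transport, the myrosinase *PEN2*, which acts on indole glucosinolates in defence, rose against both pairs in *ahl22* (1.00 and 0.40), *frs7 frs12* (0.93 and 0.31) and *ahl22 frs7 frs12* (0.98 and 0.34). *PEN2* had 99.5 and 99.6 CPM in the shared controls, 146 and 162 in the other, 187 to 202 in these mutants and 86.1 and 110 in *hda15*. *PYK10*, a root and ER-body myrosinase, fell against both pairs in *frs7 frs12* (-1.44 and -0.90) and also in *ahl22 frs7 frs12* (-1.35 and -0.82). *TGG1* and *TGG2*, the myrosinases of leaf idioblasts, fell against both pairs in *hda15* (-0.64 and -0.88 for *TGG1*, -0.59 and -0.79 for *TGG2*). *TGG2* also fell against both in *frs7 frs12* (-0.48 and -0.69), whereas *TGG1* rose against both in *ahl22* (0.57 and 0.36). *NSP1*, a nitrile-specifier protein, fell against both pairs in *ahl22* (-1.18 and -0.63) and *frs7 frs12* (-1.0 and -0.46), and is 95% identical to AT3G16410 over 1446 bases. Of the glucosinolate transporters, *GTR3*, of which 605 bases are identical to AT1G18890, fell against both in *frs7 frs12* (-2.77 and -1.22), and *GTR2* rose against both in *ahl22* (0.29 and 0.32). *NIT2*, a nitrilase, had 77.5 and 63.8 CPM in the shared controls, 98.1 and 90.8 in *hda15* and 5.33 to 17.4 elsewhere. Against the shared and the other pair it was lower in *frs7 frs12* (-3.71 and -1.21) and higher in *hda15* (0.41 and 2.92).

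Jasmonate genes were higher in *hda15*. Of 9 such genes, 7 rose against the shared controls and 7 against the other, beside 13.3% and 16.7% of all genes, and their summed level was 837 to 933 CPM in *hda15* and 218 to 319 in all other libraries. *AOS*, an enzyme of jasmonate synthesis, had 643 and 616 CPM in *hda15* against 153 to 237 elsewhere, and *LOX2* had 102 and 201 against 15.4 to 35.4. *MYC4*, a partner of the MYB regulators, had 7.76 and 9.24 in the shared controls, 9.26 and 11.1 in *hda15* and 13.9 to 22.7 elsewhere. *MYC5* was at 0 in 11 of 12 libraries. These values stand beside those of *SOT16*, and their part in its rise was not tested.

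The aliphatic glucosinolate genes, which make the methionine-derived class, offer a comparison. Of 13, 12 were tested and all 12 were higher in the other controls than in the shared pair (23.5% of all genes were), with 242 to 257 CPM summed in the shared pair and 387 to 625 in the other. Of the 12, 7 were higher in *ahl22* against the shared pair, 11 in *frs7 frs12*, 10 in *ahl22 frs7 frs12* and 11 in *hda15*, beside 27.9%, 26%, 27.1% and 13.3% of all genes. Against the other pair the median log2 difference over these genes was -0.55 in *ahl22*, -0.30 in *frs7 frs12*, -0.28 in *ahl22 frs7 frs12* and -0.05 in *hda15*, and 0 to 3 of them were lower, beside 6.3%, 6.76%, 6.27% and 28.1% of all genes that passed in either direction. The median log2 difference between the Col-0 pairs was 1.25 over the 12 aliphatic genes, -0.09 over the 9 indole genes and 0.02 over all genes tested. *MYB28*, the main activator of the aliphatic genes, was among the 5 genes whose levels followed *MYB34* most closely over the 12 libraries (Pearson r = 0.94 of log2(CPM + 1)).

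As a description, genes were ranked by how closely their levels followed the mean of the 10 members over the 12 libraries, among 18277 genes with a mean of at least 1 CPM. *HSP70* (r = 0.94), the dehydroascorbate reductase gene *DHAR1* (0.94), *BGAL3* (0.94), AT5G60030 (0.93), *FLA16* (0.92), AT5G19875 (0.92), *J2* (0.92), *NUDX19* (0.92), *OASC* (0.92) and *CCR1* (0.92) came first. For single members, chosen after their values were seen, the closest genes were also ranked. For *MYB34* the closest were *CRF11* (r = 0.96) and AT2G41820 (0.95), and for *SOT16* they were *UGD2* (0.97) and AT1G61255 (0.97). The 12 points share their groups and the division into 4 and 8 libraries, so these values carry no test.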

How the data were processed

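RNA-seq counts per gene were taken as the authors deposited them, in 4 tables, 1 for each mutant, without normalization. Per the labels and the methods, paired reads were aligned to TAIR10 with HISAT2 and counted with Subread, with versions and strand setting not given in the sources used here. The 16 columns hold 12 distinct libraries, because 3 tables repeat 1 Col-0 pair with identical values. The Col-0 columns of the *ahl22 frs7 frs12* table are numbered, but their counts differ from those of both labelled Col-0 libraries. They were therefore matched to no single sample, used as a group of their own and left out of the replicate block. Totals were 12537767 to 21400580 counts, and no column was left out. The members and gene lists were chosen with earlier results of these data known.

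Tests used edgeR 4.0.16 in R 4.3.3 (TMM, filterByExpr, quasi-likelihood, Benjamini-Hochberg over all genes tested), with a threshold of 0.05. Each mutant was fitted with 1 Col-0 pair at a time. Mutants were compared with each other, and interactions were tested, in 1 fit of all 12 libraries with 6 groups. SE is the log2 fold change divided by the square root of F. The alternatives were DESeq2 1.42.0, RLE normalization, no filter, a minimum of 10 counts per library, a fit of all 12 libraries or of only the 4 of the mutants compared, a replicate block, and leaving out each library. Leaving out a library leaves a single one in its group, so the spread then comes from the remaining groups of the fit. The fits were tested on simulated data. RPKM used exon lengths from TAIR10.1, to which 26719 of 27416 genes matched, and near copies were searched with blastn 2.17.0. Tables and plots were made with Python 3.11.15, pandas 2.3.3, numpy 2.4.6 and matplotlib 3.10.9.

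Besides the members and mutated genes, the rule for named genes took list genes with an adjusted p below 0.05 in the same direction against both Col-0 pairs, at most 4 genes per list with the largest difference between the pairs, and the 10 genes most like the member mean, and only some of the list genes it took are printed. The interaction, the library sets, the likeness to single members and the leave-outs of the interaction were added after seeing the data.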

Additional observations from a re-analysis of the deposited data

Results flagged for a closer look

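The effect of *frs7 frs12* in *ahl22* differed from its effect in Col-0 for 5 of 9 members with the shared controls and 2 of 9 with the other, by a test of the difference itself that 34% and 8.54% of all genes passed. With the other controls, the difference on the log2 scale was 0.84 for *CYP79B3* and 1.38 for *CYP81F2*. With the shared controls, it was 0.94 for *CYP79B3*, 1.5 for *CYP81F2*, -1.34 for *MYB34* (SE 0.23, edgeR adjusted p = 0.000133), 1.31 for *CYP79B2* (SE 0.222, edgeR adjusted p = 0.000118) and 1.36 for *CYP83B1* (SE 0.18, edgeR adjusted p = 8.14e-06). The last 3 genes are those in which the Col-0 pairs differed most, and they did not pass with the other pair. Each Col-0 pair was used in turn against the same mutant libraries. With the other pair, the call on *CYP79B3* was lost in 5 of 8 fits without 1 library and that on *CYP81F2* in 7 of 8. *AHL22* was low in the libraries labelled *frs7 frs12* and in the other controls, so neither has *AHL22* at the level of the shared controls.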

How the results depend on the processing

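No direction of a member's call reversed in any alternative, and among values of single members under the alternatives 1040 kept their side of the threshold, 46 lost a call and 36 gained one. The numbers of members that passed moved as follows. In *ahl22 frs7 frs12* against its own Col-0 pair 1 passed, beside 0 by DESeq2, 3 with no filter on low counts and 0 to 4 when a library was left out. In *frs7 frs12* against *ahl22* 0 passed, and 2 did so in a fit of only their 4 libraries. In *ahl22 frs7 frs12* against *ahl22* 1 passed, beside 2 with at least 10 counts in every library, 4 in a fit of only their 4 libraries and 0 to 1 when a library was left out. In *ahl22 frs7 frs12* against *frs7 frs12* 1 passed, beside 0 by DESeq2, which gave *CYP81F2* no adjusted p, 2 with no filter, 2 in a fit of only their 4 libraries and 0 to 1 when a library was left out. Leaving out a library gave 2 to 6 in *hda15* against the shared pair (4 with all libraries), 2 to 4 in *hda15* against the other pair (4), 0 to 2 in *ahl22* against the other pair (1) and 0 to 3 in *frs7 frs12* against the other pair (1). The labels do not say that replicate numbers mark a shared batch. Same-numbered deviations correlated at -0.0285 to 0.3125 over 14271 genes, with 0.1020 to 0.3125 among the shared controls, *frs7 frs12* and *hda15*. With 2 libraries per group this does not settle whether the numbers pair samples, so they were treated as numbers only. With the replicate block, 2 members passed in *ahl22 frs7 frs12* against *ahl22*, where *MYB34* was added (-0.46, edgeR adjusted p = 0.0401), 5 in *hda15* against the shared pair, where *CYP79B3* was added (edgeR adjusted p = 0.042, with 6642 in place of 4937 genes called), and 6 in *hda15* against *ahl22 frs7 frs12*, where *SUR1* was added (edgeR adjusted p = 0.0142). No other call of a member changed with the block. *MYB122* was limited by depth, with at most 13 counts per library, and n = 2 limits every comparison. Over all genes, calls moved by over 1.5 times in *ahl22 frs7 frs12* against its own pair (1167, or 1886 with no filter and 266 to 2170 when a library was left out), *ahl22* against the other pair (1181, or 1940 with no filter and 236 to 3201), *frs7 frs12* against the other pair (1269, or 462 to 1758), *hda15* against the shared pair (4937, or 2239 to 7375) and the other pair (5417, or 3207 to 4892). The same held for *frs7 frs12* against *ahl22* (872, or 1860 in the fit of 4 libraries, 1339 with the block and 277 to 489 when a library was left out), *ahl22 frs7 frs12* against *ahl22* (2330, or 4587 in the fit of 4 libraries and 738 to 1029) and *ahl22 frs7 frs12* against *frs7 frs12* (705, or 1176 with no filter, 1698 in the fit of 4 libraries, 1221 with the block and 195 to 313). The cause was not tested.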
